A study of Mus musculus with 24 samples.

Results

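The 10 genes described here, all of the blood vessel wall, were followed in the striatum of mice with and without the Q175 allele and with and without Tyrobp. They were taken by symbol from a table of read counts: all 10 were among its 54532 genes, and all 10 passed the filter on low counts. Cldn5, Pecam1, Flt1 and Tek are endothelial genes, Slco1a4, Abcb1a and Mfsd2a are transport proteins of the brain endothelium, and Pdgfrb, Rgs5 and Vtn are pericyte genes. The 24 libraries came from 24 animals of strain C57BL/6, with 6 of each genotype, 3 male and 3 female: wild type (WT), Tyrobp-KO (TyrobpKO), Q175 heterozygote (Q175), and Q175 heterozygote with Tyrobp-KO (Q175_TyrobpKO). The Q175 allele, a model of Huntington's disease, carries a long CAG repeat knocked into the mouse Htt gene and is present in every cell; Tyrobp encodes an adaptor of microglial receptors. Striatum of a single hemisphere was sequenced whole, and the age of the animals is not given in the sources used here. Replicates 1 to 3 of each genotype are males and 4 to 6 females; the numbers name libraries and pair none.

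Brain capillaries are lined by endothelial cells that are sealed to each other by tight junctions and that carry a set of importers and efflux pumps, which together form the blood-brain barrier. Pericytes sit on the outer face of the capillary in a shared basement membrane. Endothelial cells recruit them through platelet-derived growth factor, and signals from pericytes, astrocytes and neurons, among them Wnt, vascular endothelial growth factor and the angiopoietins, maintain the barrier.

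Total counts ran from 25.5 to 34.6 megacounts per library. Tyrobp was lower in both deleted genotypes (log2 fold change -4.52 against WT and -5.01 in Q175_TyrobpKO against Q175), and Htt was lower with the Q175 allele (-0.46 in Q175 against WT). Markers of the striatum were present in every genotype, with a summed level of 12 projection neuron genes between 4595 and 12734 CPM (read counts scaled to library size with TMM factors). In 4 of the 12 carriers of the Q175 allele the choroid plexus gene Ttr was above 400 CPM (Q175 replicate 3 at 3793, Q175 replicate 5 at 442, and Q175_TyrobpKO replicates 4 and 6 at 512 and 516), while the other 20 libraries lay at or below 177. Where leaving out these 4 libraries changed a count given for the Q175 allele among the genes described or other vessel genes, the count without them is given as well. Marker lists of other cells were not counted again without them. By the animal numbers in the titles, both deleted genotypes share a prefix that no other animal has. Prefixes also differ between Q175 and 5 of the 6 WT animals. A difference between prefixes can therefore add to every contrast of genotypes here except that of Q175_TyrobpKO with TyrobpKO. Where deleted animals are set against others, it cannot be told apart from loss of Tyrobp. It enters the average over carriers through Q175 and WT.

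Levels per kilobase of exon place the genes in order. Over the 24 libraries, Vtn, which encodes the matrix glycoprotein vitronectin, had 24.6 ± 2.54 CPM per kilobase (SD), Rgs5, a regulator of G-protein signalling, 21.96 ± 2.47, and Cldn5, the tight junction claudin of brain endothelium, 17.5 ± 3.54. These levels overlapped: Vtn was above Rgs5 in 18 of 24 libraries and Rgs5 above Cldn5 in 18. Cldn5 was above the next gene in all 24. The efflux pump gene Abcb1a (7.19 ± 0.717), the organic anion transporter gene Slco1a4 (6.98 ± 0.769) and the VEGF receptor gene Flt1 (6.02 ± 0.629) followed. Abcb1a was above Slco1a4 in only 16 libraries, so these neighbours are not separated beyond their spread. The lipid transporter gene Mfsd2a had 4.82 ± 0.770 CPM per kilobase and the PDGF receptor gene Pdgfrb 4.59 ± 0.490, with Mfsd2a higher in 15 libraries. The adhesion molecule gene Pecam1 (3.21 ± 0.449) and the angiopoietin receptor gene Tek (3.16 ± 0.430) were lowest, and Pecam1 was the higher of the pair in 14.

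All members but Abcb1a lie apart from every other gene of the table. Abcb1a (chromosome 5, 8660077 to 8748575, plus strand) held 26625 reads and is overlapped by Gm42686 on the other strand (247 reads) and Gm42684 on its own strand (9 reads). Its paralog Abcb1b held 3468 reads, and the paralogs of Slco1a4 held at most 81 (Slco1a5), so a shared read could move Abcb1a more than Slco1a4. Use of strand in counting is not given in the sources used here.

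Promoters are shown for Flt1, Tek, Slco1a4 and Rgs5, which were lower in carriers of the Q175 allele (below), and for Cldn5, which was not called. Each is the 250 bases before the transcription start in RefSeq (GRCm38.p6), written 5′ to 3′ in the direction of the gene, and capitals mark the core of the ETS factor motif, GGAA, and its reverse complement, TTCC. The positions are chr5:147726012-147726261 (minus strand) for Flt1, chr4:94739039-94739288 (plus) for Tek, chr6:141856221-141856470 (minus) for Slco1a4, chr1:169655251-169655500 (plus) for Rgs5 and chr16:18776597-18776846 (plus) for Cldn5.
Flt1: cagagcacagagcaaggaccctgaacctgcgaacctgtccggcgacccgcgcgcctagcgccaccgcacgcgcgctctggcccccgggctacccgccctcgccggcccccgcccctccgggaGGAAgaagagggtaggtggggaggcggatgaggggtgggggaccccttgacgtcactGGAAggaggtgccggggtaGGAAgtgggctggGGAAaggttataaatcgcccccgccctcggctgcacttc
Tek: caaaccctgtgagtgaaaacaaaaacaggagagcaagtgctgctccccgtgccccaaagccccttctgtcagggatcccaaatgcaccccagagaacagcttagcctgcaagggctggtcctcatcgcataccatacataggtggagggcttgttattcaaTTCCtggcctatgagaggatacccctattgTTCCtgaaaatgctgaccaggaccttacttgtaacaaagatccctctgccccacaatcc
Slco1a4: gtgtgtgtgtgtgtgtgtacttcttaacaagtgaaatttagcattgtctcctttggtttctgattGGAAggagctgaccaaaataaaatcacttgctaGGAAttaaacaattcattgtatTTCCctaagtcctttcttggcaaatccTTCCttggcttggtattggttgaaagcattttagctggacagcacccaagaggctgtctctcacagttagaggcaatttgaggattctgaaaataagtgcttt
Rgs5: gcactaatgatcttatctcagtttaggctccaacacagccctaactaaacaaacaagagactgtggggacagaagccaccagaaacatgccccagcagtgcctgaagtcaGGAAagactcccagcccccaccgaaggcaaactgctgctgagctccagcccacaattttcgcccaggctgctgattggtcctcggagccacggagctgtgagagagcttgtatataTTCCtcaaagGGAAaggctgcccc
Cldn5: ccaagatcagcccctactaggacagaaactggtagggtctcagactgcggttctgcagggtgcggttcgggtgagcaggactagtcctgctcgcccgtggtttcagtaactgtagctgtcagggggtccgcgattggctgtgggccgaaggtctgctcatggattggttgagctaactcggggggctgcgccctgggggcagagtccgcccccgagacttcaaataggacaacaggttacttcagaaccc
Flt1 held 4 of these cores, Tek 2, Slco1a4 4 and Rgs5 3, and the Cldn5 window held 0. In the windows not shown, that of Abcb1a, which was called, held 5, and those of Vtn and Mfsd2a, which were not, held 4 and 2, so the numbers in called and uncalled genes overlap. The Abcb1a window (chr5:8566841-8567090) lies away from the span of the counted gene given above. Unlike in the other windows, the bases after its start were not found in a GENCODE transcript of the gene. It is therefore not shown to be the promoter of the counted gene. Since 93.45% of 32851 promoter windows of this length hold at least 1, their presence does not mark these genes out. The longer form AGGAAG or CTTCCT, which contains the core, was in 2 places before Flt1 and 1 before Slco1a4, and 29.48% of all windows hold it. The window of Flt1 was 70.4% G and C and that of Slco1a4 39.2%, against a median of 52.4% over all windows. Of the 10 genes, 8 had an entry in the RefSeq promoter table; Pecam1 and Pdgfrb had none.

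The Q175 allele was first compared with WT in animals that have Tyrobp. None of the 10 genes was called (edgeR's quasi-likelihood test, Benjamini-Hochberg adjusted p under 0.05 over 19667 genes, where 9.63% of all genes were called). At an unadjusted p under 0.05 there were 4, Pecam1, Flt1, Tek and Rgs5, against a background of 22.6%. DESeq2 and limma-voom also called 0, as did edgeR in males alone (where 2.76% of all genes were called lower), in females alone (0.607%), without the 4 libraries of high Ttr (3.61%) and with total counts alone (4.31%). The log2 fold changes ran from -0.25 (Tek) to 0.01 (Mfsd2a), 9 of 10 were below 0, and their median was -0.11, beside 0.01 over all genes tested. In RNA from whole tissue, fewer vascular cells and less RNA of a gene per cell cannot be told apart.

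Tek encodes the receptor of the angiopoietins. In WT its level ran from 13.6 through a median of 16.4 to 18.2 CPM, and in Q175 from 11.5 through 13.2 to 16.7 CPM. The groups overlapped, with 1 Q175 library above the WT median. The log2 fold change was -0.25 ± 0.09 (SE), and its adjusted p of 0.0836 in edgeR fell to 0.0378 when WT replicate 3 was left out and to 0.0304 without Q175 replicate 1. By sex it was 0.00 in males and -0.48 in females, a difference of -0.47 ± 0.16 (edgeR p 0.00684), which was not called after adjustment over all genes (adjusted p 1).

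The same allele in animals without Tyrobp gave more calls. In Q175_TyrobpKO against TyrobpKO, Pecam1, Slco1a4, Abcb1a and Rgs5 fell, 4 of 10, where 3.08% of all genes were called lower. The median log2 fold change of the 10 genes was -0.18, beside 0.00 over all genes, and 9 of 10 were below 0. Markers of other cells moved in this contrast too. Medians were -0.18 for 10 astrocyte genes (3 called lower), -0.30 for 10 oligodendrocyte genes (3), -0.49 for 12 striatal projection neuron genes (6) and -0.08 for 10 microglia genes (0).

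Rgs5 is a defining gene of brain pericytes. In TyrobpKO it ran from 101.6 through a median of 110.4 to 121.4 CPM, and in Q175_TyrobpKO from 86.6 through 93.7 to 98.5 CPM. Every library with the allele lay below every library without it, as was so for 4.49% of all genes in either direction. On the log2 scale Rgs5 fell by 0.26 ± 0.07 (SE; edgeR adjusted p 0.0302).

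Slco1a4 moves organic anions, bile acids and drugs across the capillary wall. It ran from 44.5 through 48.8 to 53.2 CPM in TyrobpKO and from 34.4 through 41.8 to 50.1 CPM in Q175_TyrobpKO. Abcb1a, the main drug efflux pump of the barrier in rodents, ran from 38.7 through 43.3 to 45.5 CPM in TyrobpKO and from 29.1 through 36.8 to 42.5 CPM in Q175_TyrobpKO. Both genes overlapped between the groups: for Slco1a4 only the male replicate 2 of Q175_TyrobpKO reached the TyrobpKO range, and for Abcb1a the males of replicates 2 and 3. Their log2 fold changes were -0.25 ± 0.07 (edgeR adjusted p 0.0375) for Slco1a4 and -0.23 ± 0.07 (edgeR adjusted p 0.0456) for Abcb1a.

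Pecam1 encodes an adhesion molecule of the junctions between endothelial cells, also found on platelets and leukocytes. It ran from 18.8 through 20.6 to 23.98 CPM in TyrobpKO and from 12.5 through 17.2 to 21.7 CPM in Q175_TyrobpKO. The lowest 3 libraries were the 3 females of Q175_TyrobpKO. On the log2 scale Pecam1 fell by 0.29 ± 0.09 (edgeR adjusted p 0.0460).

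These 4 calls lie close to the threshold. DESeq2 size factors in edgeR, DESeq2 itself and limma-voom each kept the count within 1.5 times, but it was 0 without TyrobpKO replicate 1 or 3 or Q175_TyrobpKO replicate 4. It was also 0 in males alone (where 0.237% of all genes were called lower), in females alone (1.04%), without the 4 libraries of high Ttr (1.28%), and with libraries scaled to their total counts alone (2.33%). In the order Pecam1, Slco1a4, Abcb1a and Rgs5, the log2 fold changes in males alone were -0.12, -0.17, -0.14 and -0.24. In females alone they were -0.46, -0.33, -0.32 and -0.27. Without the libraries of high Ttr they were -0.20, -0.16, -0.15 and -0.26, and with total counts alone -0.23, -0.19, -0.17 and -0.20.

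**Figure D1:**
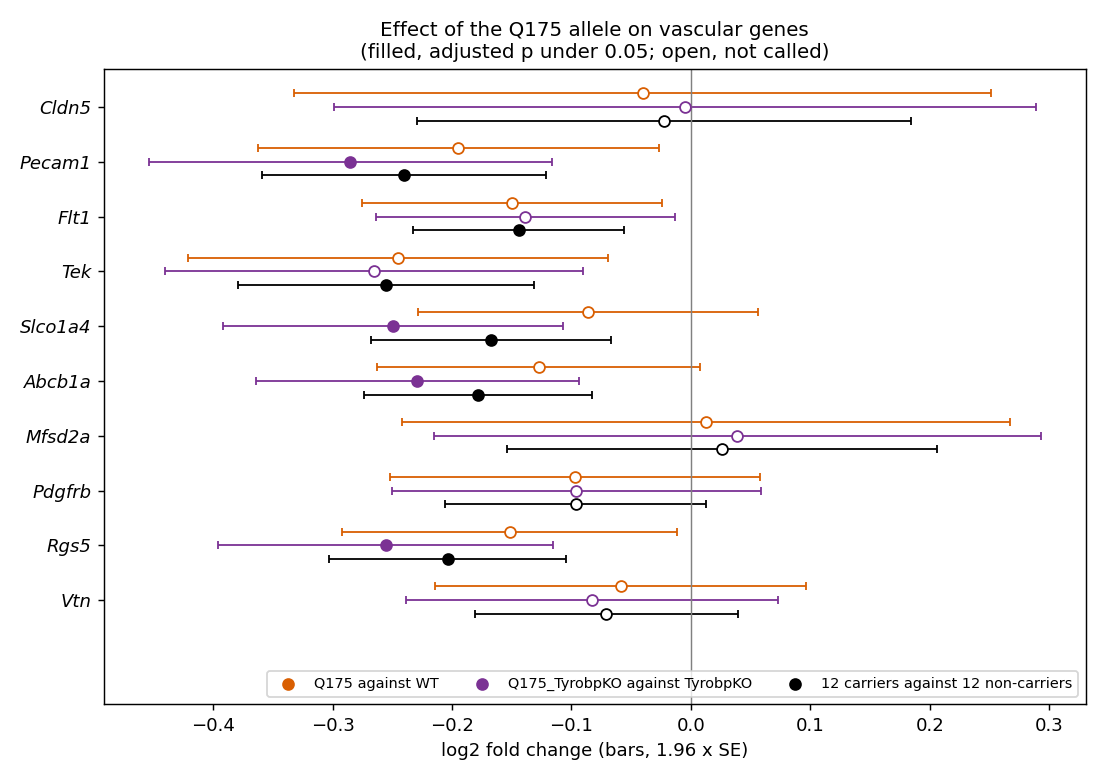
Log2 fold change (horizontal axis) of the 10 genes with the Q175 allele, in animals with Tyrobp, in animals without it, and averaged over both; bars are 95% intervals from the SE and filled points have an adjusted p under 0.05. The averaged estimates of Pecam1, Flt1, Tek, Slco1a4, Abcb1a and Rgs5 lie between -0.26 and -0.14, and those of Cldn5 and Mfsd2a at -0.02 and 0.03.

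Whether the allele acted differently with and without Tyrobp was tested as the interaction term. It called 0 of the 10 genes and 0% of all genes, with 0 of 10 at an unadjusted p under 0.05 (3.59% of all genes), and 0 by DESeq2 and limma-voom. The largest difference was that of Slco1a4 (-0.16 ± 0.10), for which the 95% interval ran from -0.36 to 0.04. A greater fall of Slco1a4 without Tyrobp was therefore not shown.

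The effect of the allele was then averaged over both Tyrobp genotypes, 12 carriers against 12 others, a contrast chosen after the separate results were seen. Of the 10 genes 6 fell, where 9.17% of all genes were called lower: 3 of the 4 endothelial genes, 2 of the 3 transporter genes and 1 of the 3 pericyte genes. The median log2 fold change over the 10 genes was -0.16, beside 0.00 over all genes tested. Pecam1, Flt1, Tek, Slco1a4, Abcb1a and Rgs5 were each called also by DESeq2, by limma-voom and with DESeq2 size factors.

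Tek had a mean of 13.6 ± 1.38 CPM in carriers and 16.2 ± 1.74 CPM in the others (SD, n = 12), a difference of -16.0%. Its log2 fold change was -0.26 ± 0.06 (edgeR adjusted p 0.0049). In 11 of 12 carriers Tek lay below the median of the others.

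Pecam1 averaged 18.4 ± 2.72 CPM in carriers and 21.6 ± 1.81 CPM in the others, a difference of -14.9% (log2 fold change -0.24 ± 0.06, edgeR adjusted p 0.0057). Of the 12 carriers 7 were below the lowest of the others.

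Rgs5 averaged 92.8 ± 7.71 CPM in carriers and 106.9 ± 9.78 CPM in the others, or -13.2% (log2 fold change -0.20 ± 0.05, edgeR adjusted p 0.0050). All 12 carriers lay below the median of the others, and 7 of the others lay above the highest carrier.

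Abcb1a differed by -11.6%, from 41.8 ± 2.53 to 37.0 ± 3.62 CPM, and Slco1a4 by -10.7%, from 47.3 ± 3.38 to 42.3 ± 5.04 CPM. Their log2 fold changes were -0.18 ± 0.05 (Abcb1a, edgeR adjusted p 0.0105) and -0.17 ± 0.05 (Slco1a4, edgeR adjusted p 0.0220). For both genes 10 of 12 carriers were below the median of the others.

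Flt1, a VEGF receptor that also exists as a soluble decoy, had the smallest called change, -9.25%, from 85.2 ± 7.18 to 77.3 ± 8.10 CPM (log2 fold change -0.14 ± 0.05, edgeR adjusted p 0.0250). Flt1 is also the least stable of the 6. It was not called without any 1 of WT replicates 2 and 4, TyrobpKO replicates 3 and 5, or Q175_TyrobpKO replicate 4, where its adjusted p was 0.0510 to 0.0675, nor without the sex term (0.0790).

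The other 4 genes gave no call. Pdgfrb, the receptor by which pericytes are recruited, averaged 24.4 ± 3.31 CPM in carriers and 25.9 ± 1.66 CPM in the others, and Vtn 48.7 ± 5.74 against 51.0 ± 4.45. For Pdgfrb the log2 fold change was -0.10 ± 0.06 and its interval reached from -0.21 to 0.01, so a fall of the size seen in Abcb1a lies within it. Cldn5 had 24.6 ± 5.84 against 24.99 ± 4.28 CPM, with an interval of -0.23 to 0.18. Mfsd2a, whose product carries lysophosphatidylcholine and restrains transcytosis, had 10.97 ± 1.85 against 10.7 ± 1.68 CPM, with an interval of -0.15 to 0.21. Cldn5 and Mfsd2a had the largest standard errors of the 10, and both intervals include a fall as large as that of Flt1.

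**Figure D2:**
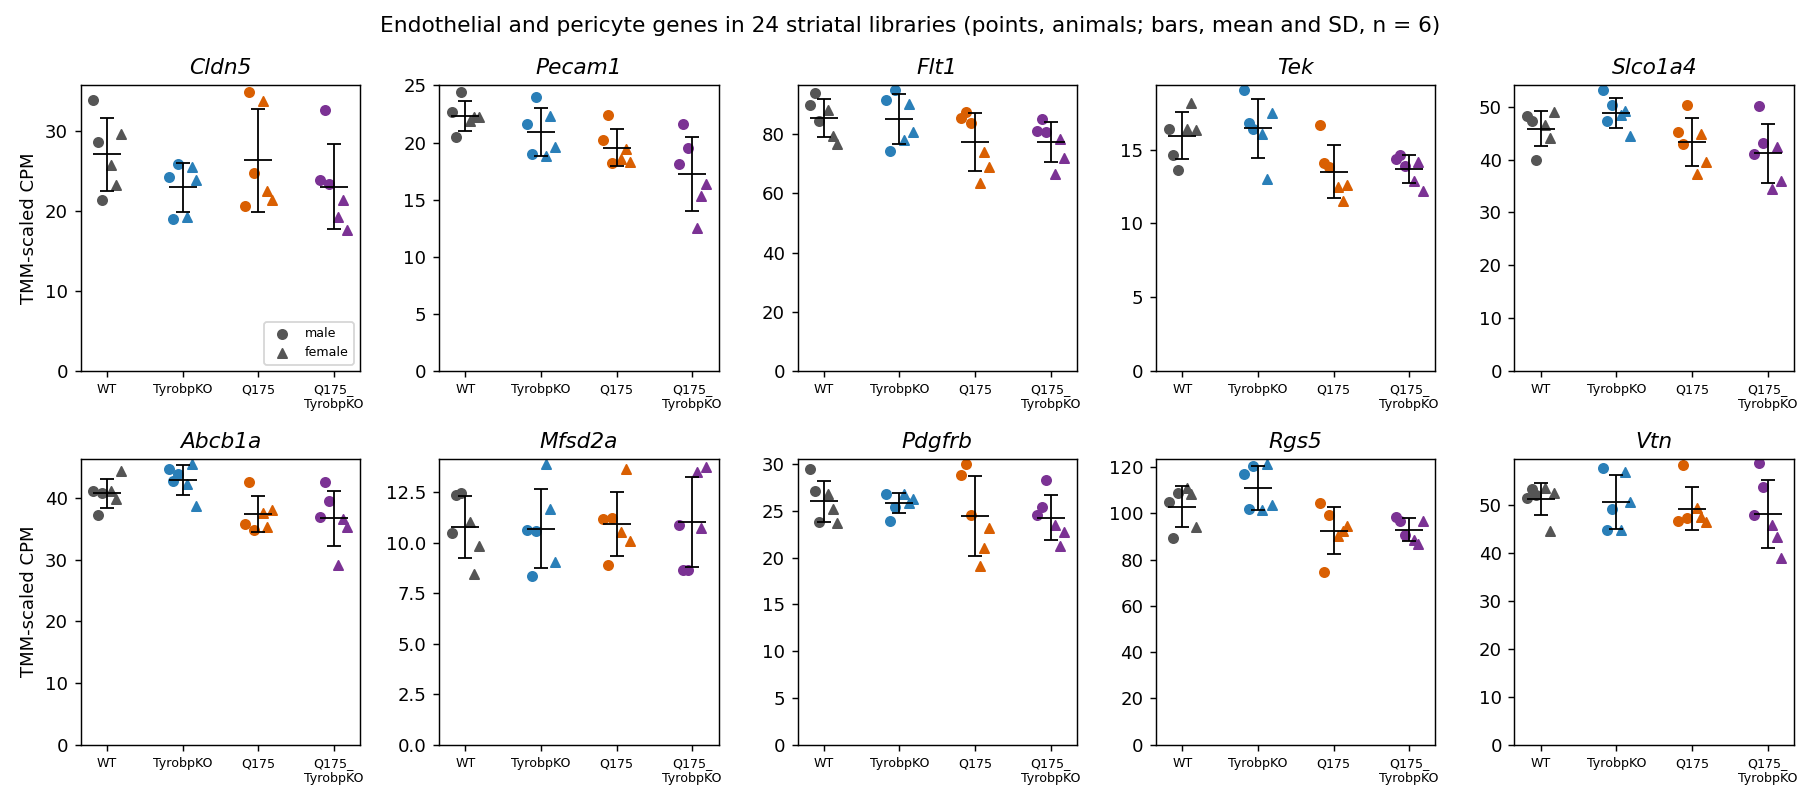
TMM-scaled CPM (vertical axis, from 0) of each gene in the 24 libraries by genotype, with circles for males, triangles for females, and bars for the mean and SD (n = 6). Rgs5 in Q175_TyrobpKO lies between 86.6 and 98.5 CPM, below all 6 TyrobpKO libraries, whereas the libraries of the 4 genotypes overlap in Cldn5 and Mfsd2a.

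The count of 6 rests on the scaling and in part on single sets of libraries. Each of the 24 libraries could be left out with 5 or 6 genes still called. Without the 4 libraries of high Ttr, 3 were called, where 6.58% of all genes were called lower: Pecam1 (-0.19), Slco1a4 (-0.16) and Rgs5 (-0.22). In Tek the value was then -0.21 with an adjusted p of 0.0634, and in Abcb1a -0.12 with 0.128. TMM factors were higher in carriers (0.990 to 1.06) than in the others (0.953 to 1.002), and with total counts alone the median over all genes moved from 0.00 to 0.06. On that scale Pecam1 (-0.18), Tek (-0.20) and Rgs5 (-0.15) were called, where 6.6% of all genes were called lower, and Slco1a4 (-0.11) was not, while the split of all calls went from 50.9% lower to 26.9% lower.

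The sexes were also taken apart. In females alone Pecam1, Tek, Slco1a4 and Abcb1a were called (log2 fold changes -0.35, -0.36, -0.27 and -0.25), 4 of 10, where 3.72% of all genes were called lower. In males alone 0 were called in edgeR, where 3.66% of all genes were called lower. The male values were -0.14 for Pecam1, -0.15 for Tek, -0.07 for Slco1a4, -0.11 for Abcb1a and -0.18 for Rgs5. The difference between the sexes was itself tested and called for none of the 10 genes or of all genes. It was largest for Mfsd2a, at -0.12 in males and 0.18 in females (difference 0.30 ± 0.16, edgeR p 0.0797, adjusted p 0.998), and had its smallest p for Pdgfrb, at 0.04 in males and -0.24 in females (difference -0.28 ± 0.10, edgeR p 0.0079, adjusted p 0.998). Pdgfrb in Q175 animals averaged 27.8 ± 2.90 CPM in the 3 males and 21.1 ± 2.05 CPM in the 3 females, and in WT 26.8 ± 2.80 and 25.2 ± 1.52.

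Both changes together were set against neither. In Q175_TyrobpKO against WT only Pecam1 fell, 1 of 10, where 5.54% of all genes were called lower (log2 fold change -0.38 ± 0.09, edgeR adjusted p 0.0041). Its WT libraries ran from 20.5 to 24.5 CPM, and 1 of the 6 Q175_TyrobpKO libraries reached into that range. The call held without each single library and was lost in males alone (-0.19, edgeR adjusted p 0.470). In the same contrast 10 microglia genes had a median log2 fold change of -0.16, with 1 called lower, beside -0.15 for the 10 genes described. Which cells the change in Pecam1 came from was not tested.

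Loss of Tyrobp itself was compared with and without the Q175 allele. In TyrobpKO against WT no gene was called by edgeR, DESeq2 or limma-voom (0.117% of all genes), and 0 had an unadjusted p under 0.05 (6.45%). In Q175_TyrobpKO against Q175 again 0 were called by the 3 tools (0.158%), and 1 gene had an unadjusted p under 0.05 (6.04%): Pecam1, at -0.19 ± 0.09 with an adjusted p of 0.819. Averaged over both Htt genotypes, a contrast also chosen afterwards, 0 were called by the 3 tools (0.208%), and Cldn5 (-0.22 ± 0.11) and Pecam1 (-0.14 ± 0.06) had an unadjusted p under 0.05, 2 of 10 where 8.89% of all genes did. Rgs5, by contrast, was at 0.06 ± 0.05, and Flt1 at 0.00 ± 0.05. The intervals of the other 8 genes all lay within -0.19 and 0.17.

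Female and male libraries were compared in the same fit. None of the 10 genes was called by edgeR (0.0814% of all genes), DESeq2 or limma-voom, and 4 had an unadjusted p under 0.05, where 4.05% of all genes did: Flt1, Pecam1, Slco1a4 and Pdgfrb, all lower in females. Flt1 was at -0.18 ± 0.05 (edgeR adjusted p 0.412) and was called only when TyrobpKO replicate 2 was left out (-0.21, adjusted p 0.0333). In Q175 animals Flt1 averaged 85.6 ± 1.89 CPM in the 3 males and 68.9 ± 5.34 CPM in the 3 females, and in WT 89.4 ± 4.65 and 81.4 ± 5.95. Between females and males the log2 fold change of Flt1 in Q175 against WT differed by -0.18 ± 0.12 (edgeR p 0.164), which was not called.

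How the genes varied together among animals was examined after the means of genotype and sex had been removed from log2 CPM. Of 45 pairs, 2 were called by a permutation test of Pearson's r with Benjamini-Hochberg adjustment over the 45, and 32 were positive. Pecam1 and Abcb1a had r = 0.816 (permutation p 1e-05, the smallest that 100000 permutations can give, adjusted p 0.00045; Spearman's rho 0.637, p 0.00117, adjusted p 0.0263; n = 24). Without the 2 libraries farthest from the median r was 0.663, and it was 0.899 among the 12 carriers and 0.658 among the 12 others. Cldn5 and Vtn had r = 0.712 (permutation p 8e-05, adjusted p 0.0018; Spearman's rho 0.682, p 0.00032, adjusted p 0.0144), and 0.676 without the 2 farthest libraries. The lowest value was that of Tek and Mfsd2a, r = -0.50. Of the 2 called pairs, Pecam1 and Abcb1a are both endothelial, while Cldn5 is endothelial and Vtn a pericyte gene. Rgs5, the other abundant pericyte gene, had r = -0.12 with Vtn. All values share the libraries and their scaling.

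**Figure D3:**
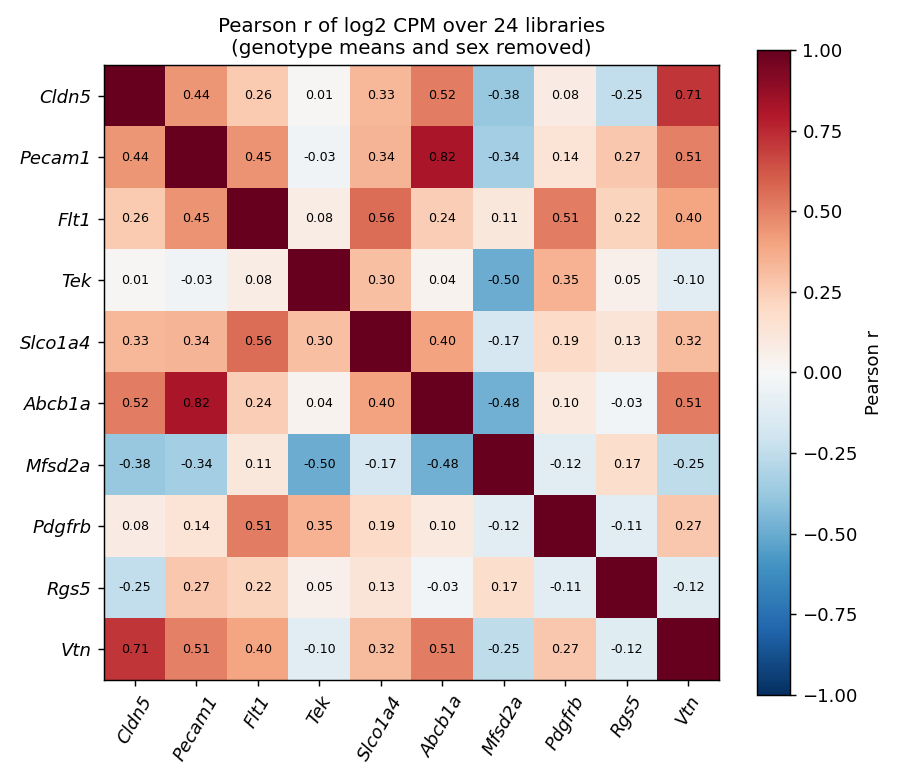
Pearson's r of residual log2 CPM for each pair of genes over 24 libraries, in colour from -1 (blue) to 1 (red). Pecam1 with Abcb1a (0.82) and Cldn5 with Vtn (0.71) are the 2 called pairs, and Mfsd2a is below 0 with 7 of the other 9 genes.

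Among all tested genes, those most like each member by the same residual r over 24 libraries included known vascular genes in few cases. Kdr, the principal VEGF receptor, was the third most like Flt1 (r = 0.698), and Pecam1 was the first for Abcb1a. For Pecam1 the nearest were Pcdhga1 (0.840), P2ry13 (0.827) and mt-Tp (0.816), for Vtn Ifngr1 (0.831), for Cldn5 Tmem134 (0.773), for Rgs5 Sacm1l (0.778) and for Mfsd2a Pfkfb3 (0.706).

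Other genes of the vessel wall were taken from 7 lists with 120 genes, of which 115 were tested. In carriers against the others 13 fell (11.3% of those tested, where 9.17% of all genes did) and 1 rose (where 8.85% did), with a median log2 fold change of -0.07. In Q175 against WT 7 fell (6.09%, against a background of 5.47%), and in Q175_TyrobpKO against TyrobpKO 6 (5.22%, against 3.08%). The shares in carriers and in Q175 against WT lie near the background. Without the 4 libraries of high Ttr the genes that fell were 10 in carriers (8.7%, against 6.58%), 4 in Q175 against WT (3.48%, against 3.61%) and 0 in Q175_TyrobpKO against TyrobpKO (against 1.28%). With total counts alone 10 fell in carriers (8.7%, against 6.6%) and 1 rose. In Q175 against WT 4 then fell (against 4.31%) and 3 rose, and in Q175_TyrobpKO against TyrobpKO 1 fell (against 2.33%) and 2 rose. In males alone 3 fell in carriers (2.63%, against 3.66%), and in females alone 7 (6.09%, against 3.72%). In Q175 against WT 1 fell in each sex, and in Q175_TyrobpKO against TyrobpKO 0 in males and 2 in females.

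The list of endothelial identity genes held 6 of the 13 that fell in carriers, 6 of its 20 members, and 0 rose, with a median of -0.16: Podxl, a sialomucin of the endothelial surface (-0.24 ± 0.05, edgeR adjusted p 0.0011), Ly6c1 (-0.29 ± 0.06), Esam, a junction adhesion molecule (-0.24 ± 0.06), and Cdh5, Eng and Ptprb. The last 3, VE-cadherin (-0.27 ± 0.07), the TGF-beta co-receptor endoglin (-0.20 ± 0.05) and the phosphatase VE-PTP (-0.18 ± 0.05), were outside the naming rule and are given because their values were seen. Eng shares its locus with Fpgs on the other strand. In Q175 against WT the called genes of this list were Tie1 (-0.38 ± 0.11), Ly6c1 (-0.36 ± 0.09) and Podxl (-0.23 ± 0.07). These 3 calls became 1 with total counts alone and 0 in males alone or in females alone, and stayed at 3 without the libraries of high Ttr. Tie1 was not called in carriers (-0.16, edgeR adjusted p 0.179). Its interaction term, above 0 where the fall is smaller without Tyrobp, was 0.44 (edgeR adjusted p 0.999). Leaving out 1 library at a time kept the call of Tie1 in 18 of 24 fits (lost without WT replicate 1, 4 or 5 or Q175 replicate 1, 5 or 6) and that of Podxl in 17 (lost without WT replicate 2, 4 or 6 or Q175 replicate 2, 3, 4 or 6). The count of 6 was 4 without the libraries of high Ttr, 5 with total counts alone, 1 in males alone and 3 in females alone.

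Of the genes of junctions and transport 1 of 20 fell in carriers, where 9.17% of all genes did: the taurine transporter gene Slc6a6 (-0.32 ± 0.05, edgeR adjusted p 3.38e-05), which neurons and glia also express. The median of the list was -0.05. Without the libraries of high Ttr 2 were called. By sign, 15 of the 20 were below 0 in carriers, 7 with Tyrobp present (Q175 against WT) and 17 with it deleted (Q175_TyrobpKO against TyrobpKO). Over all genes tested, 50.9%, 51.5% and 49.6% were above 0 in these contrasts, in the same order. The interaction term in edgeR called 0 of the 20, and 1 had an unadjusted p under 0.05 (3.59% of all genes). A difference between the Tyrobp genotypes was therefore not shown. Genes at the core of the barrier, such as Tjp1 (-0.08 ± 0.05) and the glucose transporter gene Slc2a1 (-0.07 ± 0.06), gave no call. In the pericyte list 1 of 15 fell, near the share over all genes: Ndufa4l2 (-0.50 ± 0.15, edgeR adjusted p 0.0179). The median of this list was -0.15. Ndufa4l2 had 1370 reads and overlaps Shmt2, which had 13309, so its count is uncertain. Without the libraries of high Ttr it was not called, though its log2 fold change was -0.52 (edgeR adjusted p 0.0632).

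Genes of signals to the vessel fell in carriers in numbers near the share over all genes (9.17%). Of 17 tested genes of the VEGF, angiopoietin and PDGF families 1 fell, Vegfa (-0.20 ± 0.06, edgeR adjusted p 0.0122). Vegfa stayed called without the libraries of high Ttr (-0.20, edgeR adjusted p 0.0474). It was not called with total counts alone (-0.14, edgeR adjusted p 0.0776), in males alone (-0.18, 0.0969) or in females alone (-0.20, 0.115). Of 18 genes of Wnt signalling at the barrier 2 fell, the ligand gene Wnt7a (-0.35 ± 0.09, edgeR adjusted p 0.0057) and its co-receptor gene Adgra2 (-0.42 ± 0.07, edgeR adjusted p 0.0001), and Ctnnb1, which encodes beta-catenin and lies outside the naming rule, rose (0.10 ± 0.03, edgeR adjusted p 0.0268). Adgra2 averaged 17.3 CPM (WT) and 17.5 (TyrobpKO) without the allele and 13.2 (Q175) and 12.8 (Q175_TyrobpKO) with it, and was called for the allele both with Tyrobp and without it, though in Q175 against WT not when WT replicate 2 was left out (edgeR adjusted p 0.0587). Without the libraries of high Ttr it was called in neither (-0.37, adjusted p 0.0754, and -0.42, adjusted p 0.0760), though still in carriers against the others (-0.40, edgeR adjusted p 0.00336). The Wnt list then had 2 calls in carriers, Wnt7a and Adgra2, and 0 in either separate contrast. Adgra2 overlaps Brf2 on the other strand. Axin2, a target of the pathway, was at -0.19 ± 0.08 and gave no call.

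Of 11 tested genes of endothelial activation 2 fell in carriers, where 9.17% of all genes did: Ackr1 (-0.30 ± 0.06) and Plvap (-0.33 ± 0.11). Of this list 0 rose, and Vcam1 and Icam1 were not among the calls. The call of Plvap held in 10 of the 24 fits that left out 1 library and was lost without the 4 libraries of high Ttr, where 1 gene of the list, Ackr1, was called. Ackr1 held 15973 reads and overlaps the neuronal gene Cadm3, which held 236631, and Plvap overlaps Gtpbp3, so neither value can be assigned to vessels. Of 14 basement membrane genes 0 were called in edgeR, 0 had an unadjusted p under 0.05, and DESeq2, limma-voom and the other alternatives called at most 1.

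**Figure D4:**
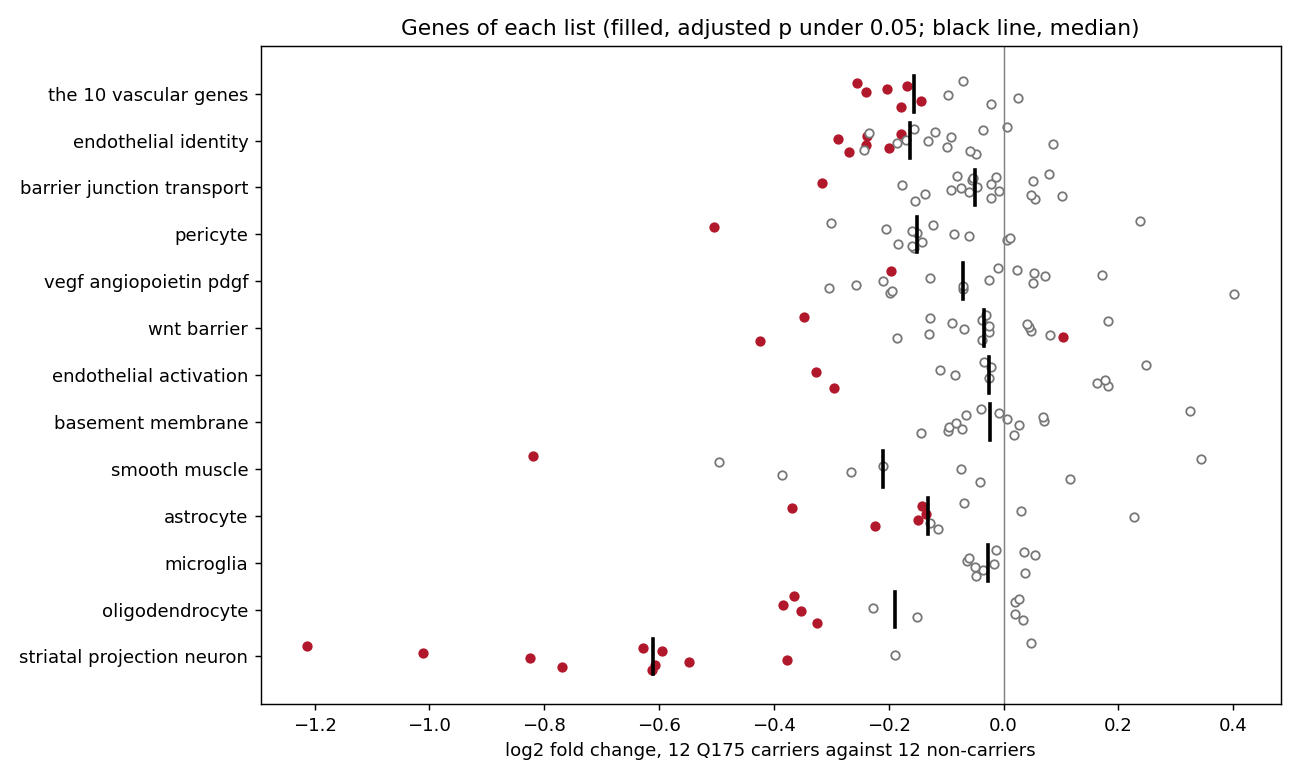
Log2 fold change in 12 carriers of the Q175 allele against 12 others (horizontal axis) for each tested gene of the 10 vascular genes, 7 vascular lists and 5 lists of other cells; filled points have an adjusted p under 0.05 and black lines are medians. The 10 genes and endothelial identity genes centre near -0.16, junction and transport genes near -0.05, and striatal projection neuron genes at -0.61.

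Markers of other cells moved in the same animals. In carriers 9.17% of all genes were called lower and 8.85% higher. Of 12 striatal projection neuron genes 10 fell in carriers (median -0.61), of 10 astrocyte genes 5 (-0.13), of 10 oligodendrocyte genes 4 (-0.19) and of 10 microglia genes 0 (-0.03). Of 9 tested smooth muscle genes 1 fell, near the share over all genes: Tpm2 (-0.82 ± 0.11). The summed level of the list was 40.1 to 47.4 CPM (WT) and 43.2 to 52.8 CPM (TyrobpKO) without the allele and 31.4 to 39.6 CPM (Q175) and 34.9 to 41.5 CPM (Q175_TyrobpKO) with it. Rgs5 and Pdgfrb are also expressed by smooth muscle, where Acta2 (-0.04 ± 0.11) and Myh11 (-0.27 ± 0.12) gave no call. Of 10 choroid plexus genes 9 rose, and the sum of the list was 336 to 473 CPM (WT) and 319 to 587 CPM (TyrobpKO) without the allele and 369 to 6129 CPM (Q175) and 346 to 1186 CPM (Q175_TyrobpKO) with it; of its genes only Aqp1 was at 0 in a library, in TyrobpKO. Of 11 tested perivascular fibroblast and meningeal genes 1 rose, near the share over all genes: Col1a1 (0.46 ± 0.13). The sums of this list were 19.0 to 26.6 CPM in WT and 19.8 to 56.7 in Q175. The part of these cells in the results was not tested, beyond the values given without the 4 libraries of high Ttr.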

How the data were processed

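RNA was sequenced from the striatum of 24 mice, 1 library per animal, grouped by the genotype and sex in the labels. The authors deposited raw read counts per gene, whole numbers with no normalization, and a gene length that equals the exon union of GENCODE M21 for all 10 genes described. STAR, featureCounts and DESeq2 are named in the submitters' processing notes without version or role, and so is the build GRCh38, although the deposited identifiers and coordinates are those of mouse genes on GRCm38. Use of strand in counting is not given in the sources used here.

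Counts were tested with edgeR 4.0.16 (R 4.3.3): TMM factors, the filterByExpr filter on genotype (19667 of 54532 genes left), a robust quasi-likelihood fit to all 24 libraries with 1 coefficient per genotype plus sex, and Benjamini-Hochberg adjustment over all tested genes, with calls at an adjusted p under 0.05. The SE of a log2 fold change is its size over the square root of the F statistic, and 95% intervals use it with the normal distribution. The biological coefficient of variation was 16.2%. Replicates are separate animals. Levels are TMM-scaled CPM, and correlations used log2 CPM with a prior count of 2 and 100000 permutations (SciPy 1.17.1). DESeq2 1.42.0 and limma 3.58.1 were alternatives, beside other filters, scalings and subsets of libraries. The fit was tested on simulated data.

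The 10 genes and the context lists were chosen with earlier results of these data known. Named beside the 10 genes were Tyrobp, Htt, the genes of smallest p in each vascular list (2 for Q175 against WT and 1 each for Q175_TyrobpKO against Q175 and against TyrobpKO), any list gene called in a contrast of 2 genotypes, and the 3 genes of highest r with each member. The averages over Tyrobp or Htt genotypes, the omission of the 4 libraries of high Ttr and scaling by total counts were added after seeing the data. Promoter sequences are from RefSeq (GRCm38.p6).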

Additional observations from a re-analysis of the deposited data

Results flagged for a closer look

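Each gene was examined in each genotype of 6 libraries, 40 groups in all, for a library that stood apart from the other 5 (Dixon's test at its 95% critical value of 0.625), which chance gives in about 1 group in 20. Vtn gave both cases: WT replicate 5 had 44.65 CPM, below the next library at 51.44, and Q175 replicate 2 had 58.34 CPM, above the next at 49.53. No other member stood apart in a single library. Of 16 groups of summed marker lists of other cells, 3 held such a library. The choroid plexus sum was 6129 CPM in Q175 replicate 3, where the next library had 1006. The sum of perivascular fibroblast and meningeal genes was 56.74 CPM in the same library, where the next had 28.39. The blood sum was 7.536 CPM in WT replicate 4, where the next had 2.986.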

How the results depend on the processing

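The 10 genes' fold changes were recomputed under every alternative, with 0 reversals of a called value, 91 values that lost a call and 5 that gained one, while 2894 kept their side. Among these 219 changed sign where no call stood in either fit. For Q175_TyrobpKO against TyrobpKO the 4 calls became 2 without the filter, 2 without the sex term, and 0 in males alone, in females alone, without the 4 libraries of high Ttr or with total counts alone. Leaving out each library gave 0 to 4: 0 without TyrobpKO replicate 1 or 3 or Q175_TyrobpKO replicate 4, 1 without WT replicate 1, TyrobpKO replicate 4, 5 or 6 or Q175_TyrobpKO replicate 1, 3, 5 or 6, and 2 without WT replicate 3, 4, 5 or 6 or Q175 replicate 6. For carriers against the others the 6 calls became 0 in males alone, 3 without the libraries of high Ttr and 3 with total counts alone, and leaving out each library gave 5 to 6. The single call in Q175_TyrobpKO against WT became 0 in males alone. Leaving out each library gave 0 to 1 for Q175 against WT (1 was Tek) and 0 to 1 for females against males (1 was Flt1, without TyrobpKO replicate 2). The 2 called pairs became 22 with no mean removed, and 2 to 6 when each library was left out (6 without WT replicate 2 or TyrobpKO replicate 6, 5 without TyrobpKO replicate 3 or Q175_TyrobpKO replicate 4). Fits of 1 sex have fewer libraries; otherwise the cause was not tested. All other alternatives kept each count within 1.5 times. No paired analysis was possible because the labels give no replicate numbers shared between genotypes.

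With total counts alone, of all genes called in Q175 against WT 30.9% were lower, beside 56.8% with TMM factors, and in Q175_TyrobpKO against TyrobpKO 26.4% beside 52.6%. Members held 7294 (Mfsd2a) to 67309 (Rgs5) reads over all libraries. How much of the spread between libraries is counting error was not tested.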
